A study of Mus musculus with 15 samples.

Results

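The genes of the proteasome were followed across a series of 5 mouse mammary cell lines, each measured on 3 expression arrays. Members were the genes whose symbol begins Psma, Psmb, Psmc, Psmd, Psme, Psmf or Psmg followed by a number, without the interferon-inducible pair Psmb8 and Psmb9. This gave 47 genes of the 18193 that had a probe set with a single symbol. They fall into 17 genes of the core particle (8 alpha and 9 beta subunits), 20 of the regulatory particle (6 ATPases, 11 other subunits and 3 assembly chaperones) and 10 others. The 10 others are the activators Psme1, Psme3 and Psme4, the inhibitor Psmf1, the core assembly chaperones Psmg1, Psmg2, Psmg3 and Psmg4, and Psmc3ip and Psme3ip1. These last 2 were taken in by their symbols: Psmc3ip encodes a cofactor of meiotic recombination and Psme3ip1 a protein that binds the Psme3 activator, and neither is a proteasome subunit.

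NMuMG is a non-tumorigenic, wild-type mouse mammary gland epithelial line. E1KD is the same line with hnRNP E1, an RNA-binding protein encoded by Pcbp1, silenced, and the M1P, L1P and L2P lines descend from it and carry the same silencing. M1P was taken from a mammary fat pad tumour after 1 passage of E1KD cells in mice, L1P from the lungs after 1 passage, and L2P from the lungs after a second passage that began with L1P cells. The series' design text names NOD/SCID mice, a strain without working T and B cells, as the hosts. Each line is a single line, the labels do not say whether its 3 arrays came from separate cultures, and the p-values then describe only how these arrays vary, which may be technical variation.

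The proteasome is the protease that removes proteins tagged with ubiquitin from the cytosol and nucleus. Its core is a barrel of stacked alpha and beta rings; the alpha rings form the gates, and 3 of the beta subunits, Psmb5, Psmb6 and Psmb7, carry the active sites. The regulatory particle caps the barrel, binds ubiquitin chains, removes them and threads the substrate inward with a ring of ATPases, whereas the activators open the gate without ubiquitin or ATP. In mammalian cells the transcription factor encoded by Nfe2l1 raises most proteasome genes together through antioxidant response elements when proteasome activity falls short.

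Values are log2 signals of 1 probe set per gene, as deposited. "Rose" and "fell" are used for genes with an adjusted p under 0.05 in limma, adjusted by Benjamini and Hochberg over all 18193 genes. Pcbp1 was at 12.57 to 12.76 on the NMuMG arrays and at 7.95 to 10.09 on those of the silenced lines. Correlations between arrays of a line ran from 0.979 to 0.996 in the other lines and from 0.930 to 0.978 in M1P. M1P array 1 had a 75th percentile of signal of 6.33, against 6.64 to 6.86 on the other arrays, and the difference between Actb probe sets at the 3' and 5' ends, a sign of RNA quality, was 0.64 to 0.77 in M1P, 0.68 to 0.83 in L2P, 0.77 to 0.93 in E1KD, 0.80 to 0.97 in L1P and 0.82 to 0.98 in NMuMG. Of 12 mammary epithelial markers, Krt8 and Krt18 were at 13.42 or more on every array and Epcam at 5.80 or less. The mean was under 6 for 8 of the 12 in E1KD and 7 of the 12 in NMuMG. In E1KD 10 of the 12 were lower than in NMuMG, and the median difference over all genes was -0.07. Of the 12, 1 passed: Krt7, at 10.74, 10.43 and 9.63 in NMuMG and 5.23, 4.68 and 4.52 in E1KD, fell by 5.46 (adjusted p = 2.22e-07). The part of Krt7 in the E1KD results was not tested. Among markers of other cell types, those of alveolar and airway cells summed to 27.93 to 32.34 on the M1P arrays against 25.85 to 26.76 in E1KD. Those of fibroblasts summed to 28.63 to 34.67 against 26.82 to 27.66, and those of macrophages and leukocytes to 36.94 to 40.92 against 35.92 to 36.73. Such sums also grow with a shift over all genes, whose median was 0.20 higher in M1P. In M1P the mean was under 6 for 5 of 6 alveolar and airway, 8 of 8 fibroblast and 7 of 8 macrophage and leukocyte markers. Foxj1, the exception among the first, was at 8.40, 7.78 and 6.44 in M1P against 5.50, 5.59 and 5.55 in E1KD. The part of these markers in the M1P results was not tested.

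Across the 5 lines 23 of the 47 genes differed by the F test, where 31.8% of all genes did. Of these, 6 were among the 17 core genes, 10 among the 20 regulatory genes and 7 among the 10 others. The gene with the smallest p was Psme1 (adjusted p = 2.26e-05), the alpha subunit of the interferon-inducible activator, followed by the ATPase Psmc4 and the assembly chaperone Psmd9. The F test includes the M1P arrays and uses 1 spread for all lines. The median SD between arrays over all genes was 0.32 in M1P against 0.14 to 0.19 in the other lines, which limits the F test calls as well. Psma8, a testis form of an alpha subunit, and Psmb11, a beta subunit of the thymus, lay between 2.47 and 3.51 on all arrays, below the arrays' median probe set of 4.17 to 4.26, and count as members without measurable signal. The inducible subunits outside the rule were also low, Psmb8 at 3.44 to 4.82 and Psmb9 at 4.39 to 5.25, and neither passed in any comparison.

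Promoters of 4 genes are printed because they bear on the groups described next: Psme1 had the smallest p over the 5 lines, Psmb5 and Psma7 are core genes that fell after silencing, and Psmd4 is a regulatory gene that fell with them. Each run is 300 bases, 250 before the gene's start and 50 after it, from RefSeq's GRCm38.p6, written on the gene's strand. Capitals mark the searched motifs, the antioxidant response element TGACNNNGC in Psmb5 and the CCAAT box in Psma7 and Psmd4, on either strand. Psme1 lies on the plus strand at chr14:55578244-55578543, Psmb5 on the minus strand at chr14:54617946-54618245, Psma7 on the minus strand at chr2:180042415-180042714 and Psmd4 on the minus strand at chr3:95042565-95042864.
Psme1: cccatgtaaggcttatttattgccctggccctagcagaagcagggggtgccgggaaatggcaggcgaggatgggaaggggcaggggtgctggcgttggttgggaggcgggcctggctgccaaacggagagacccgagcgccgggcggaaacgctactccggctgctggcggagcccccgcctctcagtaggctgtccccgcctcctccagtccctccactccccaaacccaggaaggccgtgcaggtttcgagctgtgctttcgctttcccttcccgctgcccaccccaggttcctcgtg
Psmb5: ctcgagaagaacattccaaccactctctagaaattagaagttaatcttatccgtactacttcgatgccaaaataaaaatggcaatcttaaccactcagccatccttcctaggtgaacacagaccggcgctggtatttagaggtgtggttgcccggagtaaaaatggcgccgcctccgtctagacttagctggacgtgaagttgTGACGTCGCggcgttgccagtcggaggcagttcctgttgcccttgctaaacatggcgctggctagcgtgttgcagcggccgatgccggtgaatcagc
Psma7: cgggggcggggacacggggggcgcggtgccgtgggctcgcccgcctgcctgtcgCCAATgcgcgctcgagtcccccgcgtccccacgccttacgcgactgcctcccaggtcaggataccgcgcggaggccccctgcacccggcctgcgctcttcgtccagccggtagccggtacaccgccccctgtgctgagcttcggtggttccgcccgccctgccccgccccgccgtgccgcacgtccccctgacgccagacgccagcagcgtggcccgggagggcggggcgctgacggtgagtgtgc
Psmd4: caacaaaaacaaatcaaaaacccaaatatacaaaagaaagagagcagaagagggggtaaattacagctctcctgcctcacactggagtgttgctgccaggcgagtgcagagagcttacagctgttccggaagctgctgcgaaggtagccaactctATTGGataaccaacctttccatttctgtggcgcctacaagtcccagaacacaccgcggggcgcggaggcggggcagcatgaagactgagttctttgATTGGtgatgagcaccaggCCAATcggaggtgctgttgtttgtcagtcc
Psmb5 had 1 element, TGACGTCGC, 47 bases before the start, Psma7 had 1 CCAAT box, Psmd4 had 3, and Psme1 had neither motif. Over the 39 members with a promoter in the table, 6 held the antioxidant response element (15.4%), where 14.0% of 27025 genes did. The 6 were Psmb5, Psmb6, Psmc6, Psmd9, Psmd12 and Psme4. The CCAAT box was in 15 of the 39 (38.5%), against 41.1% of all genes. Among the 9 genes with a promoter that fell in E1KD, described next, 1 held the element and 3 the box.

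The first comparison, E1KD with NMuMG, asks what differed once hnRNP E1 was silenced. No member rose and 11 fell, where 3.00% of all genes rose and 6.49% fell. The fallen genes were 6 of the 17 core genes (Psma5, Psma7, Psmb1, Psmb4, Psmb5 and Psmb7), 2 of the 20 regulatory genes (Psmc4 and Psmd4), the activator Psme1, the inhibitor Psmf1 and Psmc3ip. That no member rose depends on the probe set used for Psmd11. The brightest of its 8 probe sets, used here, differed by 0.33. The others, by falling signal, differed by 0.40, 0.13, 0.72, -0.23, -0.13, -0.12 and 0.02. The one at 0.72 had a limma adjusted p of 0.00995 over the 34945 probe sets with a single symbol. At an unadjusted p under 0.05 in limma, 6 members were higher and 13 lower. The share of all genes at that threshold is not given here, so these counts are not read as particular to the members. Of the 9 beta subunit genes 8 were lower and 4 fell, with a median log2 difference of -0.45. The 8 include Psmb11, which had no measurable signal. The 8 alpha subunit genes had a median of -0.04, the regulatory particle 0.07 and all genes -0.07. The difference between the particles was not tested. Among the 1338 genes with a mean signal of 10 or more, which hold 13 of the core and 16 of the regulatory genes, 9.94% fell and 3.81% rose. Of the fallen members, Psma5, Psmb4 and Psmd4 lie on chromosome 3, where 12.1% of genes fell and 1.63% rose. The other fallen members lie on chromosomes 2, 7, 11, 14 and 17, where 5.30% to 8.70% of genes fell. The part of the chromosomes in these falls was not tested.

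**Figure D1:**
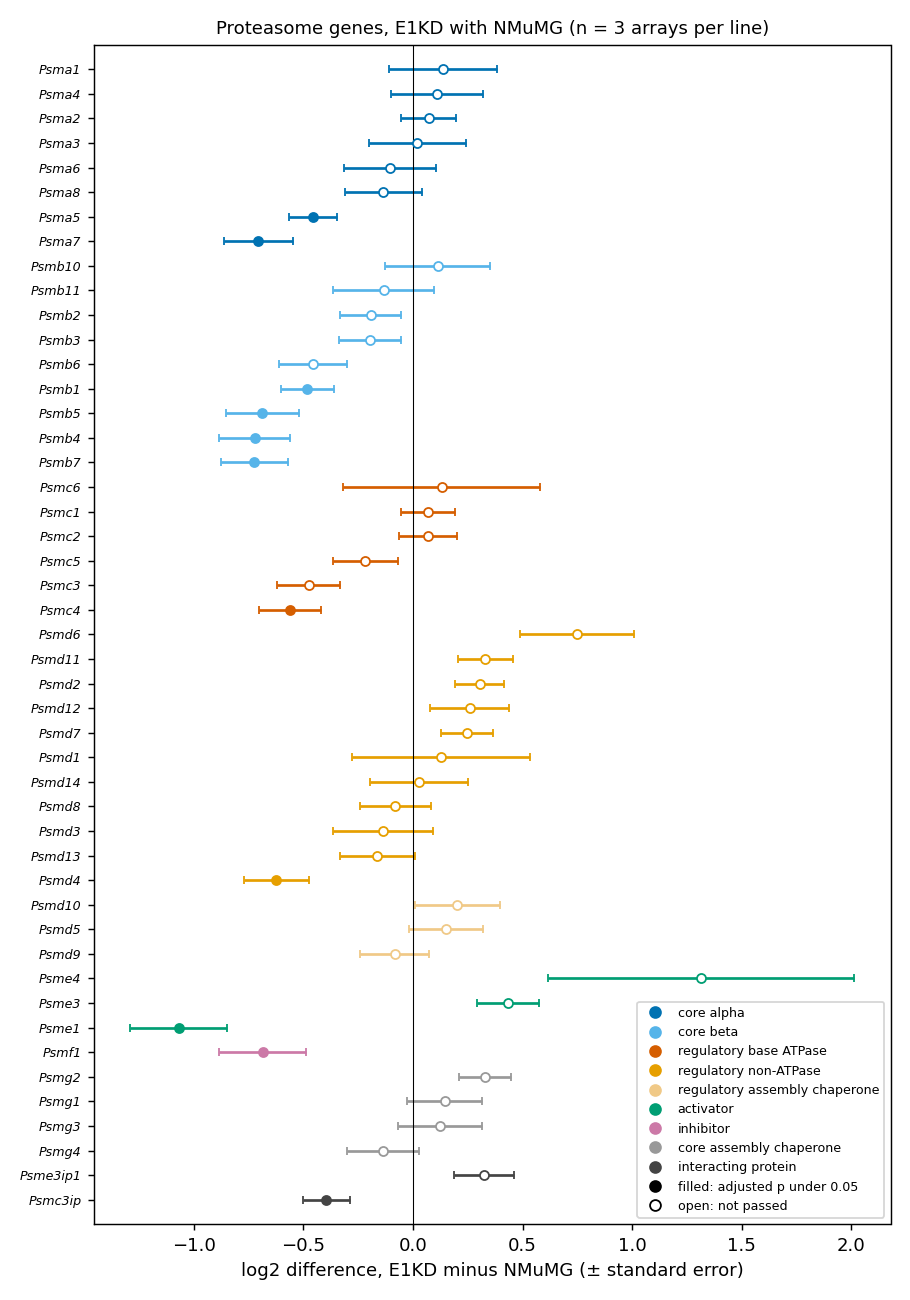
Log2 difference of E1KD from NMuMG for each of the 47 genes (x axis, point and standard error, 3 arrays per line), grouped and coloured by class. Filled points passed; the 11 filled points all lie left of 0, from -1.07 for Psme1 to -0.39 for Psmc3ip.

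Of the catalytic subunits, Psmb5, which holds the chymotrypsin-like site, was at 11.23, 11.16 and 11.22 in NMuMG and 10.67, 10.30 and 10.57 in E1KD. It fell by 0.69 ± 0.17 on the log2 scale (± SE, n = 3 arrays per line, limma adjusted p = 0.0182), and no arrays of the lines overlapped. Psmb7, which holds the trypsin-like site, was at 10.11, 10.20 and 10.27 in NMuMG and 9.63, 9.24 and 9.54 in E1KD, and fell by 0.72 ± 0.15 (adjusted p = 0.0092). Psmb6, the caspase-like subunit, showed the same order without passing: it was at 11.96, 11.96 and 12.02 in NMuMG and 11.71, 11.41 and 11.47 in E1KD, a log2 difference of -0.45 ± 0.16 (adjusted p = 0.0932). Psmb10, the inducible form that takes the place of Psmb7, overlapped between the lines, at 8.05, 7.94 and 8.07 against 8.34, 7.96 and 8.08.

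The non-catalytic beta subunit gene Psmb4 was at 12.61, 12.52 and 12.50 in NMuMG and 11.94, 11.75 and 11.78 in E1KD, and fell by 0.72 ± 0.16 (adjusted p = 0.0115). Psmb1, another non-catalytic subunit, fell by 0.48. In the alpha ring Psma7 fell by 0.70 ± 0.16 (adjusted p = 0.0121). Psma5, also of the alpha ring, was at 12.03, 12.38 and 12.31 in NMuMG and 11.83, 11.78 and 11.73 in E1KD, and fell by 0.46. In each of these 4 genes every E1KD array lay below every NMuMG array. Second probe sets differed the same way, by -0.78 for Psmb4, -0.73 for Psma7 and -0.59 for Psma5; the dimmest of the 3 probe sets of Psma5 gave 0.06. The remaining core genes did not pass: Psma1, Psma2, Psma3, Psma4, Psma6, Psma8, Psmb2, Psmb3, Psmb6, Psmb10 and Psmb11 lay between -0.45 and 0.14.

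In the regulatory particle, Psmd4, a ubiquitin receptor, fell by 0.62 ± 0.15 (adjusted p = 0.017), and a second probe set differed by -0.87. The ATPase gene Psmc4 was at 11.58, 11.95 and 11.66 in NMuMG and 11.39, 10.96 and 11.15 in E1KD, and fell by 0.56 ± 0.14 (adjusted p = 0.0236). Its second probe set differed by -0.37 and did not pass among the probe sets with a single symbol (limma adjusted p = 0.181). Both genes had separate arrays in the 2 lines, like the fallen core genes. The other 18 genes did not pass and ranged from -0.48 for the ATPase gene Psmc3 (adjusted p = 0.0579) to 0.75 for the lid subunit gene Psmd6 (adjusted p = 0.1). Psmd14, the enzyme that takes ubiquitin chains off the substrate, was at 11.85, 11.83 and 12.15 in NMuMG and 11.96, 12.03 and 11.92 in E1KD, a difference of 0.03 ± 0.22.

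The activators went separate ways in E1KD. Psme1 was at 9.32, 9.28 and 9.07 in NMuMG and 8.18, 7.90 and 8.39 in E1KD, and fell by 1.07 ± 0.22 (adjusted p = 0.00712), a 2.10-fold drop in signal. It passed in each of the 27 alternative settings, with an adjusted p of 0.000121 to 0.0437. Psme3, the nuclear activator, was at 9.25, 8.99 and 9.09 against 9.61, 9.41 and 9.61, and its difference of 0.43 ± 0.14 did not pass (adjusted p = 0.0793). Psme4, an activator of the nucleus known for its part in histone breakdown in the testis, differed by 1.32 ± 0.70 without passing. Psmf1 fell by 0.68 ± 0.20 (adjusted p = 0.047) and passed in 12 of 27 alternatives. The 4 core assembly chaperones did not pass and lay between -0.14 and 0.33, and Psme3ip1 was 0.32 higher without passing. Psmc3ip was at 8.96, 9.13 and 9.05 in NMuMG and 8.73, 8.50 and 8.71 in E1KD and fell by 0.39.

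The number of fallen members rested on single arrays. It was 1 (Psme1) without E1KD array 2, 5 without E1KD array 3, and 6, 7 and 3 without NMuMG arrays 1, 2 and 3. Adjusted p-values without E1KD array 2 were 0.054 for Psmb7 and 0.0549 for Psmb4. With the 75th percentile of each array as a covariate 17 members passed, 4 risen and 13 fallen, and with array weights 20 passed, 7 risen and 13 fallen. The share of all genes passing in these fits is not given here, so the changed counts are not read as particular to the members. The median differences moved less: the core median stayed between -0.24 and -0.14 over the 15 fits that each left out an array. On the 3 E1KD arrays the median beta subunit gene stood at -0.27, -0.57 and -0.48 from the NMuMG mean, with 8 of 9 genes lower on each array. Psmb11, without measurable signal, is among those lower on arrays 1 and 3. Of all 18193 genes 9876, 11714 and 10534 were lower on these arrays, with medians of -0.03, -0.12 and -0.05.

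**Figure D2:**
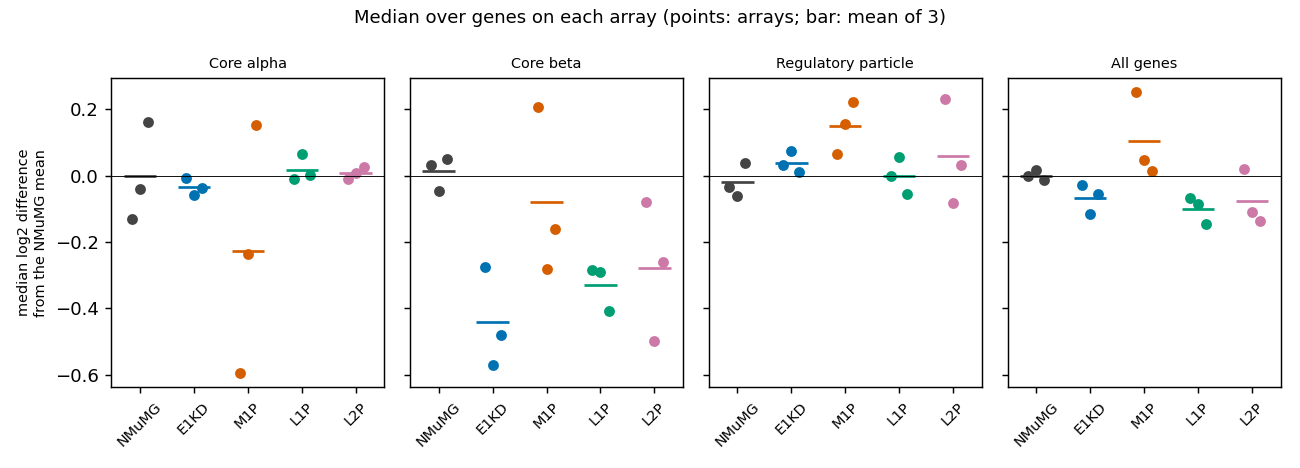
Median log2 difference from the NMuMG mean (y axis) on each array of each line (x axis), for alpha, beta and regulatory particle genes and for all genes; points are arrays and bars the mean of 3. The beta medians of E1KD and L1P lie at or below -0.27 on all 6 arrays, the regulatory medians between -0.08 and 0.23 on all 15 arrays, and M1P array 1 stands apart in the alpha panel at -0.59.

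M1P with E1KD compares the tumour-derived line with the cells injected. Among the members 12 rose and 4 fell, where 17.7% of all genes rose and 9.86% fell. The risen genes were 5 of the core (Psma7, Psmb1, Psmb4, Psmb5 and Psmb7), 5 of the regulatory particle (Psmc3, Psmc4, Psmd8, Psmd9 and Psmd13), Psme1 and Psmg3. The fallen genes were Psmd11 and Psmd12 of the regulatory particle, the activator Psme4 and the assembly chaperone Psmg2. The 9 beta subunit genes, among them Psmb11 without measurable signal, were all higher, with a median of 0.38. The alpha subunit genes had a median of -0.14. The medians of 0.14 for the core and 0.12 for the regulatory particle lay below that of all genes, 0.20, which itself was 0.02 with each array's 75th percentile as a covariate. The same 3 E1KD arrays enter this comparison and the one before, so a low E1KD value counts towards a fall in one and a rise in the other.

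Psmd13, a lid subunit, was at 10.26, 10.25 and 10.36 in NMuMG, 10.44, 9.75 and 10.20 in E1KD, and 11.60, 11.11 and 11.17 in M1P. It rose by 1.17 ± 0.17 (adjusted p = 0.00134). Psmd9, a chaperone of the ATPase ring, was at 8.20, 8.23 and 8.29 in NMuMG, 8.21, 8.08 and 8.18 in E1KD, and 9.59, 9.00 and 8.96 in M1P, and rose by 1.03 ± 0.16 (adjusted p = 0.00185). For both genes each M1P array lay above each array of the other 4 lines. Psmc4 was at 12.29, 11.96 and 11.97 in M1P and rose by 0.91 ± 0.14 (adjusted p = 0.00198). These 3 genes also passed with M1P array 3 as the only M1P array, where the count of passing members was 4 (3 risen and 1 fallen). With 1 array the spread in that fit comes from the other lines alone, and M1P is assumed to vary as they do.

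The lid subunit Psmd8 rose by 0.79 ± 0.16 (adjusted p = 0.00769) and the core assembly chaperone Psmg3 by 0.76 ± 0.19 (adjusted p = 0.0168). Psmd13, Psmc4 and Psmd8 lie on chromosome 7, and Psmd9 and Psmg3 on chromosome 5. In M1P 31.1% of the genes on chromosome 7 rose and 2.32% fell, and on chromosome 5 30.5% rose and 4.51% fell. Over all genes 17.7% rose and 9.86% fell. The part of these chromosomes in the M1P rises was not tested. Psme1 was at 9.54, 9.07 and 8.58 in M1P and rose by 0.91 ± 0.22 (adjusted p = 0.0145), and its M1P arrays overlapped those of NMuMG. The catalytic subunits Psmb5 (11.53, 10.84 and 10.97 in M1P) and Psmb7 (10.22, 9.91 and 9.91) rose by 0.60 ± 0.17 (adjusted p = 0.0235) and 0.54 ± 0.15 (adjusted p = 0.0256). Psmb4, at 12.71, 12.11 and 12.11 in M1P, also rose, as did Psma7, Psmc3 and Psmb1, by 0.35 to 0.51. Psmb6 (12.29, 11.61 and 11.82) did not pass, with a difference of 0.38 ± 0.16 (adjusted p = 0.0786). Psma5 was at 11.76, 11.78 and 11.78 in M1P, a difference of -0.01, and Psmb10 at 8.87, 7.89 and 8.21, a difference of 0.20.

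Psme4 fell by 2.79 ± 0.70 (adjusted p = 0.0162), and its M1P arrays were far apart, at 5.56, 7.53 and 9.05, against 9.89, 10.66 and 9.97 in E1KD. The next 2 probe sets of Psme4 by signal differed by -2.80 and -2.58. Psmg2, a chaperone that pairs with Psmg1 in building the alpha ring, was at 8.51, 8.74 and 8.69 in NMuMG, 8.91, 8.92 and 9.09 in E1KD, and 8.22, 8.42 and 8.37 in M1P. It fell by 0.64 ± 0.12 (adjusted p = 0.00472), and each M1P array lay below every array of the other 4 lines. The lid subunits Psmd12 and Psmd11 fell by 0.56 ± 0.18 (adjusted p = 0.0379) and 0.43 ± 0.13 (adjusted p = 0.0275). The Psmd11 fall held for the brightest of 8 probe sets and not for their mean, which differed by 0.01.

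Several further genes were low on M1P array 1 alone or on arrays 1 and 2 and did not pass. The base scaffold gene Psmd1 was at 8.85, 10.50 and 11.11 in M1P against 11.15, 11.40 and 11.22 in E1KD, and the ATPase gene Psmc6 at 8.41, 8.61 and 10.37 against 9.91, 10.51 and 10.05. Psmd14 was at 10.88, 11.85 and 12.02 in M1P. Psme3, which also did not pass, was not low on array 1, at 9.53, 9.45 and 9.40. The alpha subunit genes Psma1, Psma3, Psma4 and Psma6 were lowest of all 15 arrays on M1P array 1, at 10.22, 11.23, 10.87 and 11.21. The count of 16 passing members was 4 without M1P arrays 1 and 2, an alternative chosen after seeing the data. It was 7 without M1P array 1, 5 without E1KD array 2, 7 without E1KD array 3, 3 (all risen) with the 75th percentile as a covariate, 4 with the Actb 3' to 5' difference as a covariate, and 0 in a fit of these 2 lines alone. These counts are given without the share of all genes passing in the same fits, so their changes are not read as particular to the members. The arrays of M1P varied most: the median SD between the 3 arrays of a line, over all genes, was 0.32 in M1P against 0.14 to 0.19 in the other lines, and over the 47 members 0.31 against 0.10 to 0.19. The fit uses 1 spread for all lines, which understates that of M1P, so the adjusted p-values of the comparisons with M1P are too small.

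**Figure D3:**
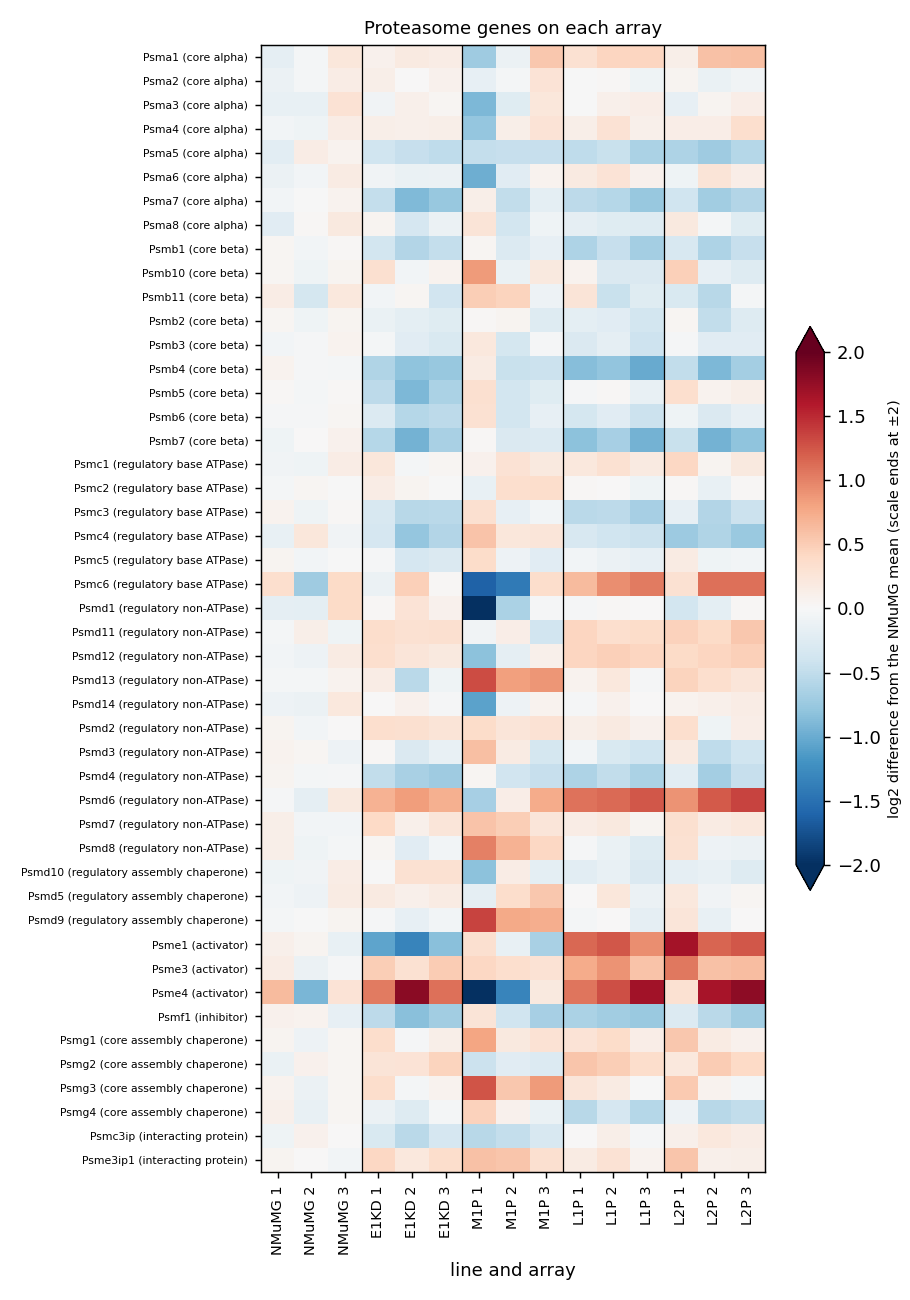
Log2 difference from the NMuMG mean of each of the 47 genes (rows, by class) on each of the 15 arrays (columns, by line); red is higher, blue lower, and the colour scale ends at 2 in each direction. The M1P arrays vary most among themselves, as for Psme4, Psmd1 and Psmc6, and Psme1 is blue in E1KD and red in L1P and L2P.

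L1P and L2P with E1KD compare the lung-derived lines with the cells first injected, and both use the same E1KD arrays. In L1P 1 member rose, Psme1, and none fell, where 1.19% of all genes rose and 1.29% fell. At an unadjusted p under 0.05, 3 members were higher and 1 lower. In L2P 3 rose (Psme1, Psmb5 and Psmc3ip) and none fell, where 2.14% of all genes rose and 1.64% fell. At an unadjusted p under 0.05, 5 were higher and 0 lower. For both lines the share of all genes at the unadjusted threshold is not given here, so these counts are not read as particular to the members. The core and regulatory medians were -0.07 and 0.00 in L1P and 0.03 and 0.09 in L2P, with all genes at -0.03 and 0.00.

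Psme1 was at 10.38, 10.46 and 10.15 in L1P and at 10.89, 10.39 and 10.46 in L2P. It rose by 2.18 ± 0.22 in L1P (4.52-fold, adjusted p = 8.83e-05) and by 2.43 ± 0.22 in L2P (5.38-fold, adjusted p = 2.25e-05). Every lung line array lay above every array of NMuMG, E1KD and M1P, and both calls passed in all 27 alternatives, with adjusted p-values of at most 0.000945 and 0.000412. The order of the line means was 8.15 in E1KD, 9.06 in M1P, 9.22 in NMuMG, 10.33 in L1P and 10.58 in L2P. M1P and NMuMG overlapped, as did L1P and L2P. The 8 macrophage and leukocyte markers summed to 36.21 to 37.84 in L1P and 37.17 to 39.55 in L2P against 35.92 to 36.73 in E1KD, with Cd68 at 5.90, 5.49 and 5.56 in L1P, 6.50, 6.02 and 6.02 in L2P and 5.12, 4.89 and 5.01 in E1KD. Lyz2 was at 5.03, 5.23 and 4.84 in L1P and 5.54, 4.70 and 5.37 in L2P against 4.24, 4.14 and 4.18 in E1KD. Cd14 was at 9.63, 10.15 and 9.43 in L1P and 10.35, 9.61 and 9.55 in L2P against 9.94, 10.28 and 10.42. None of the 8 passed in either line. In L1P 4 were higher and 4 lower, and in L2P 3 were higher and 5 lower. Ptprc, which marks leukocytes, was at 2.72 or less on every array. The part of these markers in the Psme1 rise was not tested.

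The partner subunit Psme2 shares its probe set with Psme2b in the platform's annotation, so it is not a member, and it was tested among 45037 probe sets. That probe set was at 9.38, 9.26 and 9.44 in NMuMG, 8.74, 8.47 and 8.70 in E1KD, 9.72, 9.20 and 9.05 in M1P, 10.55, 10.63 and 10.20 in L1P, and 11.18, 10.90 and 10.86 in L2P. It differed from E1KD by 1.83 ± 0.17 in L1P (limma adjusted p = 7.84e-05) and by 2.34 ± 0.17 in L2P (adjusted p = 4.98e-06), and E1KD differed from NMuMG by -0.72 (adjusted p = 0.0254). The order of the 5 line means was E1KD, M1P, NMuMG, L1P and L2P, as for Psme1. M1P and NMuMG, with means of 9.32 and 9.36, overlapped, as they did for Psme1. Each L2P array lay above each L1P array, with a difference of 0.52 ± 0.17 that did not pass. The chromosomal place of this probe set was not analysed, and its likeness to Psme1 was not tested.

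**Figure D4:**
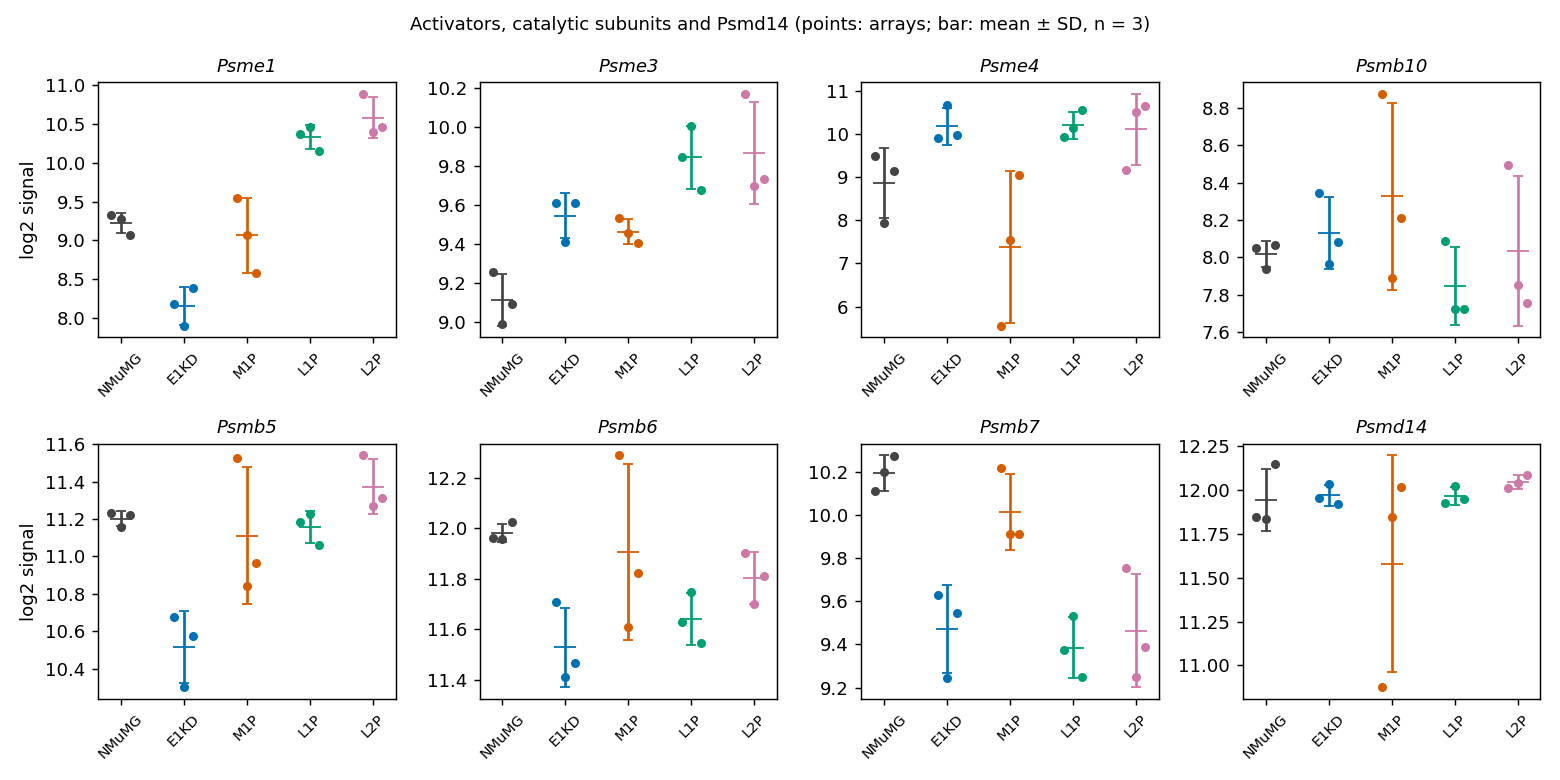
Log2 signal (y axis, a scale of its own in each panel) of the activators Psme1, Psme3 and Psme4, the catalytic subunits Psmb10, Psmb5, Psmb6 and Psmb7, and Psmd14 in each line (x axis); points are arrays, and bars the mean ± SD of 3. Psme1 runs from 7.90 on an E1KD array to 10.89 on an L2P array, and Psmb5 in the lung lines lies at 11.06 to 11.54, above the E1KD arrays at 10.30 to 10.67.

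Psmb5 was at 11.19, 11.23 and 11.06 in L1P and 11.54, 11.27 and 11.31 in L2P. It rose by 0.86 ± 0.17 in L2P (adjusted p = 0.00896), while the L1P difference of 0.64 ± 0.17 did not pass (adjusted p = 0.0674). Without E1KD array 2 the adjusted p in L2P was 0.0549. The other catalytic genes did not follow Psmb5: Psmb7 was at 9.37, 9.53 and 9.25 in L1P and 9.75, 9.25 and 9.39 in L2P, differences of -0.09 and -0.01 from E1KD. Psmb6 was at 11.63, 11.75 and 11.55 in L1P and 11.90, 11.70 and 11.81 in L2P, differences of 0.11 and 0.28 that did not pass. Psmb4 was at 11.69, 11.76 and 11.54 in L1P and 12.05, 11.65 and 11.86 in L2P, and Psma5 at 11.73, 11.79 and 11.60 and at 11.62, 11.54 and 11.67, all below the NMuMG arrays of those genes. Psmb10 was at 8.09, 7.73 and 7.73 in L1P and 8.50, 7.86 and 7.76 in L2P, and overlapped with E1KD.

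Psmc3ip was at 9.05, 9.16 and 9.03 in L1P and 9.15, 9.25 and 9.20 in L2P, and rose by 0.55 ± 0.11 in L2P (adjusted p = 0.00951); in L1P the difference was 0.43 ± 0.11 (adjusted p = 0.0539). Without E1KD array 2 Psmb5 and Psmc3ip no longer passed in L2P and the count there was 1. The L1P count was 3, 2 and 2 without M1P arrays 1, 2 and 3, which enter the fit through the shared spread. The share of all genes passing in these fits is not given, so the changes are not read as particular to the members. Psme3 was at 9.85, 10.01 and 9.68 in L1P and 10.17, 9.70 and 9.74 in L2P, above each E1KD array, with differences of 0.30 and 0.32 that did not pass. In the regulatory particle no gene passed in either lung line. Psmd14 was at 11.93, 12.02 and 11.95 in L1P and 12.01, 12.04 and 12.09 in L2P, Psmc4 at 11.41, 11.33 and 11.30 and at 11.00, 11.14 and 10.99, and Psmd9 at 8.19, 8.24 and 8.06 and at 8.48, 8.09 and 8.24. All 3 genes were within 0.18 of their E1KD means in both lines. Psmd13, at 10.36, 10.51 and 10.27 in L1P and 10.73, 10.63 and 10.54 in L2P, differed by 0.25 and 0.50 without passing.

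Psme1 and Psmb5 lie on chromosome 14, with 3 further members, Psmb11, Psmc6 and Psmd6. Of 648 genes on that chromosome 9.57% rose in L1P and 12.3% in L2P. Psmc6 was at 10.65, 10.95 and 11.07 in L1P and 10.34, 11.13 and 11.13 in L2P, differences of 0.73 ± 0.45 and 0.71 ± 0.45 that did not pass. Psmd6 differed by 0.41 ± 0.26 in both lines without passing, and Psmb11 had no measurable signal. The part of the chromosome in the Psme1 and Psmb5 results was not tested.

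**Figure D5:**
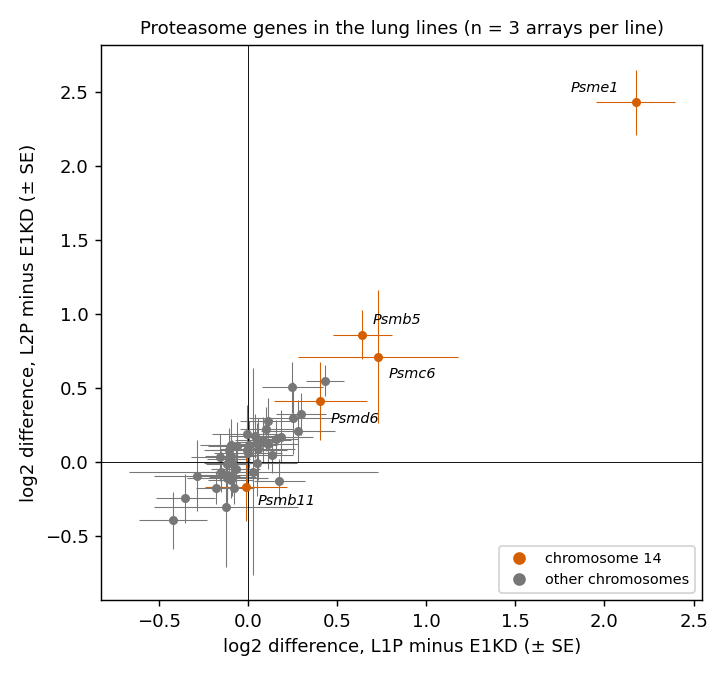
Log2 difference from E1KD in L1P (x axis) and L2P (y axis) for each of the 47 genes, with standard errors; both axes share the E1KD arrays. Psme1 stands at 2.18 and 2.43, and the genes of chromosome 14 are orange; Psmb5, Psmc6 and Psmd6 lie at 0.41 to 0.86 on both axes and Psmb11 near 0.

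No member passed between the lung lines. In the simulated data described below, the test of L2P with L1P found 9.6% of changes of 0.5 and 59.4% of changes of 1. Differences of these sizes could therefore be missed. In L2P with L1P 0 genes rose and 0 fell in limma, where 0.0934% and 0.0495% of all genes did, and 0 had an unadjusted p under 0.05. Differences ran from -0.31 ± 0.14 for Psmc4 (unadjusted p = 0.0515) to 0.25 ± 0.17 for Psmd13, and Psme1 differed by 0.25 ± 0.22. The second probe set of Psmc4 differed the other way, by 0.16. The core and regulatory medians were 0.06 and 0.02, beside 0.02 for all genes. The count was 0 in each of the 15 fits that left out 1 array.

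L1P with M1P compares the lung-derived and the tumour-derived line of the same passage number. Among the members 9 rose and 11 fell, where 13.6% of all genes rose and 25.9% fell. The medians were -0.20 for the core, -0.19 for the regulatory particle and -0.25 for all genes. The largest rises were those of Psme4 (2.82 ± 0.70, adjusted p = 0.0117), Psmc6 (1.76 ± 0.45, adjusted p = 0.0133) and Psme1 (1.27 ± 0.22, adjusted p = 0.00235). Psmd6 rose by 1.08 ± 0.26 (adjusted p = 0.0105), Psmg2, at 9.20, 9.13 and 9.00 in L1P, by 0.77 ± 0.12 (adjusted p = 0.00113) and Psmd12 by 0.75 ± 0.18 (adjusted p = 0.0105). Psmc3ip, at 8.49, 8.57 and 8.72 in M1P, rose by 0.49 ± 0.11 (adjusted p = 0.00688) and Psmd11 by 0.48 ± 0.13 (adjusted p = 0.0139). The Psmd11 difference turned to -0.48 with its probe set of largest variance, -0.12 with the mean of its probe sets and -0.14 with probe sets without a suffix, and did not pass in these. Psme3 was the smallest rise at 0.38 and passed in 4 of 28 alternatives.

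The falls in L1P with M1P were led by genes that had risen in M1P. Psmd9 fell by 1.02 ± 0.16 (adjusted p = 0.00129), Psmd13 by 0.92 ± 0.17 (adjusted p = 0.00344) and Psmd8 by 0.85 ± 0.16 (adjusted p = 0.00391). Psmg3 fell by 0.76 ± 0.19 (adjusted p = 0.0127) and Psmc4 by 0.73 ± 0.14 (adjusted p = 0.00412). Psmd9, Psmd13, Psmd8, Psmg3 and Psmc4 are the genes of chromosomes 5 and 7 named above, and the part of those chromosomes in these falls was not tested. The core genes Psmb4 and Psmb7 fell by 0.64 ± 0.16 (adjusted p = 0.0121) and 0.63 ± 0.15 (adjusted p = 0.0112). Psmg4, the partner of Psmg3 in assembly, fell by 0.62 ± 0.16 (adjusted p = 0.0147), and Psmc3, Psmb1 and Psma7 fell by 0.61, 0.46 and 0.43. Both comparisons use the M1P arrays, so they do not count as separate evidence for M1P. The counts that follow are given without the share of all genes passing in the same fits. They are not read as particular to the members. The 20 calls became 5 without M1P arrays 1 and 2, 12 without L1P array 3 and 0 in a fit of these 2 lines alone.

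Genes that work with the proteasome but lie outside the symbol rule were counted as lists. Of 9 measured partners, 1 rose in E1KD: Akirin2, which brings proteasomes into the nucleus, by 0.76 (adjusted p = 0.0131). In M1P 2 rose (Ubxn1 and Pomp, the maturation factor of the core, by 0.70 and 0.34) and 2 fell (Ecpas, a proteasome adaptor, by 1.86 and the deubiquitinase Uchl5 by 1.02). In L1P with M1P Usp14, Uchl5 and Ecpas rose and Pomp and Ubxn1 fell, and none passed in the other comparisons. Further genes of these lists were not analysed here.

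Of 12 genes for transcription factors of proteasome control and their processing, 1 fell in E1KD: Keap1, the adaptor that marks Nfe2l2 protein for degradation, by 0.81 (adjusted p = 0.0229). Nfe2l1 was at 9.13, 9.04 and 8.91 in NMuMG, 9.57, 9.33 and 9.66 in E1KD, 9.73, 9.70 and 8.81 in M1P, 10.12, 10.49 and 9.63 in L1P and 10.28, 10.13 and 9.77 in L2P. All E1KD arrays lay above the NMuMG arrays, but the difference of 0.49 ± 0.25 did not pass (adjusted p = 0.299), nor did Nfe2l1 pass in any other pair of lines; over the 5 lines its F test gave an adjusted p of 0.0232. In M1P Keap1, Maff and Mafk rose by 0.77 to 0.90 and Nfya and Nfyb fell by 0.62 and 0.87. In L1P with M1P Nfe2l2, Ngly1 and Nfyb rose and Keap1, Maff, Mafk and Nfyc fell. None of the 12 passed in L1P or L2P with E1KD.

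Of 9 ubiquitin and shuttle genes, Ubqln2 rose in E1KD by 0.91 (adjusted p = 0.048), Uba6, Ubqln1 and Ubqln2 fell in M1P by 2.23, 0.75 and 0.89, and Uba6 and Ubqln1 rose in L1P with M1P. Of 8 immunoproteasome and peptide-loading genes none passed in E1KD or in the lung lines with E1KD, Tap1, Tap2 and Irf1 rose in M1P, and Tap1, Tap2, Tapbp and Irf1 fell in L1P with M1P. The 8 subunit genes of the cytosolic chaperonin, another complex of many subunits, had a median of 0.27 in E1KD with none passing. In M1P all 8 were lower and 4 fell (Tcp1, Cct2, Cct4 and Cct8), and 3 rose in L1P with M1P. Over all genes 3.00% rose and 6.49% fell in E1KD, 17.7% rose and 9.86% fell in M1P, and 13.6% rose and 25.9% fell in L1P with M1P, against which the counts of these short lists are to be read. These M1P counts use the same arrays whose quality measures are given above.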

How the data were processed

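RNA from 15 samples, 3 per line, was measured on Affymetrix mouse arrays. The deposited values are log2 signals for 45101 probe sets; the tools behind them are MAS5, RMA and the Affymetrix Expression Console, per the submitters' processing notes, in roles and versions not given in the sources used here. Background removal and summarisation compress differences near the floor. Arrays have no read depth, and precision is set by how many there are.

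Symbols came from the platform annotation and were updated through Entrez identifiers in RefSeq's GRCm38.p6 table: 34945 probe sets had a single symbol, 932 several, 9160 none, and 64 were controls. Of the first, 34741 took their symbol from RefSeq and 204 kept the platform's. A gene with several probe sets was represented by the brightest on average (15 arrays). The 47 members had 100 probe sets, and 26 members had more than 1. The model in limma 3.58.1 (R 4.3.3) had a mean for each line and used all arrays, with 10 residual and 2.98 prior degrees of freedom, and two-sided moderated tests were adjusted over 18193 genes, threshold 0.05. Lists are described by counts and medians without a test.

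Values per array are given for the catalytic subunits, Psmd14, Psme1 and the 10 members with the smallest F test p; differences, for the 8 largest rises and falls that passed. The members and lists were chosen with earlier results of these data known. The tests were checked on simulated data with known changes and each line's own spread; there the share of false calls was far above the threshold in both comparisons with M1P and below it in the others. Other probe sets, normalizations, filters, covariates and fits without single arrays were tried.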

Additional observations from a re-analysis of the deposited data

Results flagged for a closer look

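Psmd12, a lid subunit gene, lay on opposite sides of E1KD in the lines of the first passage. It was at 11.15, 11.06 and 11.01 in E1KD, 9.99, 10.64 and 10.91 in M1P and 11.25, 11.28 and 11.25 in L1P, so every M1P array lay below and every L1P array above those of E1KD. It fell in M1P (adjusted p = 0.0379), while the difference of L1P from E1KD, 0.19, did not pass (adjusted p = 0.929). The difference of L1P from M1P was 0.75 ± 0.18 (limma adjusted p = 0.0105); without M1P arrays 1 and 2 it was 0.35 and did not pass (adjusted p = 0.148), and over 27 alternatives the adjusted p ran from 0.000872 to 0.512.

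The probe set that the platform assigns to both Psme2 and Psme2b lies outside the tests of genes. Its difference from E1KD was 1.83 in L1P and 2.34 in L2P, with every lung line array above every E1KD array. No formal test for outlying arrays was made with 3 arrays per line.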

How the results depend on the processing

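With 3 arrays per line, single arrays set most counts. The counts of members in the alternative fits are given without the share of all genes passing in the same fit. Their changes are therefore not read as particular to the members. Leaving out 1 array at a time, the count of members that passed ran from 19 to 28 over the 5 lines, from 1 to 14 in E1KD with NMuMG, 5 to 24 in M1P with E1KD, 1 to 3 in L1P with E1KD, 1 to 3 in L2P with E1KD and 12 to 29 in L1P with M1P. The core medians ran from -0.24 to -0.14 in E1KD with NMuMG, 0.085 to 0.29 in M1P with E1KD, -0.09 to -0.0012 in L1P with E1KD, -0.03 to 0.10 in L2P with E1KD, 0.01 to 0.15 in L2P with L1P and -0.31 to -0.10 in L1P with M1P. The regulatory medians ran from 0.0010 to 0.14, 0.05 to 0.17, -0.03 to 0.03, -0.0099 to 0.17, 0.02 to 0.10 and -0.21 to -0.14 in the same order. With the 75th percentile as a covariate the counts were 17 in E1KD with NMuMG, 3 in M1P with E1KD, 3 in L1P with E1KD and 3 in L1P with M1P; the regulatory median was 0.027 in M1P with E1KD and the core median -0.057 in L1P with M1P. Array weights gave counts of 20, 0, 7, 10 and 2 in the comparisons of E1KD with NMuMG, of M1P, of L1P and of L2P with E1KD, and of L1P with M1P, a core median of 0.27 in M1P with E1KD and a regulatory median of 0.0062 in L2P with E1KD. With the Actb difference as a covariate, chosen after seeing the data, the counts were 4 in M1P with E1KD, 2 in L1P with E1KD and 5 in L1P with M1P, and the regulatory median in the last was -0.10. Without M1P arrays 1 and 2 they were 4 in M1P with E1KD and 5 in L1P with M1P, with a regulatory median of -0.086. Fits of only the lines compared, with few residual degrees of freedom, gave 0 in M1P with E1KD, 0 in L1P with M1P and 3 in L1P with E1KD. Centring arrays on their median gave 2 in L1P with E1KD. Probe sets without a suffix for shared sequence gave 5 in E1KD with NMuMG and regulatory medians of -0.11 in L1P and -0.012 in L2P with E1KD, and the probe set of largest variance a regulatory median of -0.040 in E1KD with NMuMG. The cause of these shifts was not tested.

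The labels number the arrays 1 to 3 in each line. Same-numbered arrays of different lines deviated together in 16 of 30 pairs (r over 0.1, median 0.11, range -0.50 to 0.75). Differently numbered arrays did so in 24 of 60 pairs (median -0.08, range -0.77 to 0.66). Whether the numbers mark a pairing cannot be told from these values, and the main fit did not use them. With the replicate block the counts were 13 in E1KD with NMuMG, 21 in M1P with E1KD, 2 in L1P with E1KD, 3 in L2P with E1KD and 25 in L1P with M1P. Of 1407 alternative values for the 51 gene calls, 1097 kept direction and call, 304 no longer passed and 6 turned direction. The 6 were Psmd11 in M1P with E1KD (0.34 and 0.013 with the probe set of largest variance and the mean of all probe sets), Psmd11 in L1P with M1P (-0.48, -0.12 and -0.14 with those and with probe sets without suffix) and Psma5 in E1KD with NMuMG (0.064 with the latter). They rest on other probe sets of those genes.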

Other observations

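Over the 15 arrays the mean of the 17 core genes was most like Ppil3 (Pearson r = 0.919), Ufm1 (0.904), S100a10 (0.898), Tsacc (0.897) and Lamtor5 (0.893), a description over arrays that share lines and processing. Within the proteasome the agreement with that mean was uneven: r was 0.83 for the ATPase gene Psmc3 and 0.85 for the ubiquitin receptor Psmd4, which are regulatory genes, against -0.31 for Psma1 and -0.23 for Psma4 in the alpha ring. Psmb5 had an r of 0.51 with the core mean, of which it is a part, whereas Psmb7 had 0.87. The lid gene Psmd11 had -0.64 and Psmd6 -0.58.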
